A study of Mus musculus with 16 samples.

Results

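Interferon-stimulated genes were examined in brain libraries labelled as microglia, from mice with experimental autoimmune encephalomyelitis (EAE). EAE is a model of multiple sclerosis in which immunization against myelin leads to inflammation of the central nervous system. The 45 genes were taken by symbol from a list of mRNAs that interferons are known to induce, and 43 of them had a row among the 21878 mRNAs of the count and FPKM tables. Mx1 and Mx2 were not analysed here. Both groups were female wild-type C57BL/6 mice, aged 8 weeks according to the methods. The 8 EAE mice received MOG peptide in complete Freund's adjuvant together with pertussis toxin, and the 8 control mice received PBS. The control group therefore lacked the adjuvant and the toxin as well as the peptide, and their effects cannot be told apart. According to the methods, brains were taken on day 14, at the peak of disease, and CD11b+/CD45int cells were sorted for 1 total RNA library per mouse. Each library carries the name of its group and its replicate number (EAE 1–8, PBS 1–8).

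Type I interferons (interferon alpha and beta) and interferon-gamma bind different receptors on the cell surface. Type I interferon acts mainly through the interferon-stimulated response element (ISRE), which a complex with STAT2 and IRF9 binds, and interferon-gamma acts mainly through the gamma-activated site (GAS). The Ifit, Oas and Isg15 genes are classical type I targets that act against viral RNA and proteins. The guanylate-binding proteins (Gbp) and the immunity-related GTPases (Irgm1, Irgm2, Igtp, Iigp1) are strongly induced by interferon-gamma. Both GTPase families take part in defence against intracellular pathogens that live in vacuoles. Many genes respond to both cytokines, so the classes describe the usual inducer and not a separate pathway. Microglia, the resident macrophages of the brain, respond to both kinds of interferon.

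The 250 bases upstream of the annotated starts were searched on both strands for GAAA followed, after any 2 bases, by another GAAA (ISRE), and for TTCNNNGAA (GAS), where N is any base. Promoter sequences were RefSeq sequences of GRCm38.p6 and matched 33 of the 43 genes. An ISRE match was present in 17 of the 33 genes (51.5%), against 3.46% of the 27025 genes in the promoter table. A GAS match was present in 8 of the 33 (24.2%), against 8.13% of all genes, and 6 genes held both. All 7 of the GTPase genes with a promoter sequence had an ISRE match, and 4 of them also had a GAS match. Of the 6 type I core genes with a sequence, 4 had an ISRE match and 2 had a GAS match. The stretches below show both letter patterns in genes of the 2 classes, with Irf1 as an example of GAS letters alone. Capitals mark the matches, and matches to the same letters overlap each other in Isg15, Oas1a and Gbp3. The stretches of Ifit1 (chr19:34640760-34640838), Ifit3 (chr19:34583348-34583441), Gbp2 (chr3:142620579-142620638), Gbp3 (chr3:142559974-142560039), Irgm2 (chr11:58214877-58214947) and Irf1 (chr11:53769899-53769957) are read from the plus strand. Those of Isg15 (chr4:156200850-156200921) and Oas1a (chr5:120907526-120907648) are read from the minus strand. Each is written 5′ to 3′ in the direction of its gene and ends upstream of the RefSeq start used for the search. By the GENCODE gene positions, the stretches of Gbp2 and Gbp3 run past the start of the gene. That of Irgm2 lies inside the gene by those positions.
Ifit1: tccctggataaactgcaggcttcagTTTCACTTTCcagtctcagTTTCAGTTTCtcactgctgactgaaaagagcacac
Ifit3: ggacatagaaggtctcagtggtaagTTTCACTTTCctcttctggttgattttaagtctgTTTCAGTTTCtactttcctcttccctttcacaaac
Isg15: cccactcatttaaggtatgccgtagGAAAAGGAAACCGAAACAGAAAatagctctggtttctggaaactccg
Oas1a: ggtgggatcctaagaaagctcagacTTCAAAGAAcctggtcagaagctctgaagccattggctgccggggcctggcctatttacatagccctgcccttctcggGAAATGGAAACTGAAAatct
Gbp2: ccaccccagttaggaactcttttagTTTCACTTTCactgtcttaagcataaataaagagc
Gbp3: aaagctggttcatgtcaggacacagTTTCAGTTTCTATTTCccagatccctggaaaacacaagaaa
Irgm2: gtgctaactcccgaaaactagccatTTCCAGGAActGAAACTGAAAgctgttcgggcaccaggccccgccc
Irf1: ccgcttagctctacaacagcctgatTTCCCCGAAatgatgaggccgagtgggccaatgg
Ifit1 and Ifit3, both on chromosome 19, each held 2 separate ISRE matches in these bases. A match is a run of letters and not a measured binding site.

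Total counts ranged from 24587443 to 30244215 in the EAE libraries and from 26031889 to 34184576 in the PBS libraries. EAE 6, 7 and 8 were more alike than other EAE libraries, as were PBS 5, 7 and 8 among the PBS libraries. With sampling noise alone set to 1, the median squared difference between 2 libraries was 3.07–4.02 for pairs within these sets and 5.69–24.1 for the other pairs of a group. Neither the labels nor the methods name a batch, so whether these sets are one cannot be told. The libraries held much mRNA of other brain cells, so a change in them need not lie in microglia. The mean FPKM (fragments scaled to transcript length and library size) of 17 microglial markers was 12.1–21.3 per library. That of the neuronal, astrocytic and oligodendrocytic markers was 92.0–121, 146–223 and 114–160, respectively, higher in all 16 libraries. Summed over the microglial markers, the FPKM was 221–363 in EAE libraries and 206–343 in PBS libraries. In edgeR, 15 of the 17 had a log2FC above 0, with a median of 0.16 and with Trem2 called. Within the libraries other than EAE 6, 7, 8 and PBS 5, 7, 8, all 17 were above 0, with a median of 0.30. Of the 17, 8 were above 0 within EAE 6, 7, 8 and PBS 5, 7, 8, with a median of −0.10. Over all 16 libraries, 9 of 10 neuronal markers had a log2FC below 0, with a median of −0.14, and Syt1 and Gad1 were called lower. Of 8 astrocytic markers, 7 were below 0, with a median of −0.21, and 1 was called, higher in EAE mice. Of 8 oligodendrocytic markers, 7 were below 0, with a median of −0.13, and 0 were called. Among all tested mRNAs, 52.7% were above 0 and 2.42% were called. The part of these markers in the values of the interferon-stimulated genes was not tested. Summed over 12 neutrophil markers, the FPKM was 49.98–101 in EAE libraries and 19.5–57.7 in PBS libraries. Of these 12, 4 were DEmRNAs, all higher in EAE mice, against 0.117% of all tested mRNAs. In bulk libraries, a larger share of a cell type and more RNA per cell cannot be told apart.

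The interferon-stimulated genes were shifted upwards in EAE mice, by a small amount. All 43 genes had a log2FC (log2 of the fold change, EAE against PBS) above 0, as did 52.7% of the 17885 mRNAs tested. Their median log2FC was 0.38, against 0.01 for all tested mRNAs, and the single values ranged from 0.01 for Cmpk2 to 0.95 for Oasl2. Ifit1, Ifit3, Oasl2, Usp18 and Ddx58 rose in EAE mice at a Benjamini-Hochberg adjusted p under 0.05 in edgeR (quasi-likelihood F-test, adjusted over all tested mRNAs). These 5 of 43 genes compare with 0.660% of all tested mRNAs that were higher at this threshold, and with 2.42% called in either direction. Before adjustment, 20 of the 43 had a p under 0.05, all of them higher in EAE mice, against 7.92% of all tested mRNAs. A DEmRNA, which also needs a |log2FC| over 1, was found 0 times among the 43 genes in edgeR (0.117% of all tested mRNAs) and 0 times with DESeq2. No gene of the list exceeded a log2FC of 1 in either fit, whatever its p. DESeq2 called 10 of the 43 genes higher (1.66% of all tested mRNAs), the same 5 with Gbp7, Irf7, Ifih1, Trim30a and Parp14. With the replicate number as a block, 10 of the 43 genes were called higher (0.839% of all tested mRNAs), but the numbers were not found to pair the mice. Leaving out 1 library at a time changed the count to between 1 and 11. It was 1 without EAE 1, EAE 3, EAE 8 or PBS 3, when Ifit1 was the remaining gene, 2 without EAE 2, EAE 6, PBS 2, PBS 5 or PBS 6, 3 without EAE 7 or PBS 7, 10 without EAE 5 and 11 without EAE 4.

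**Figure D1:**
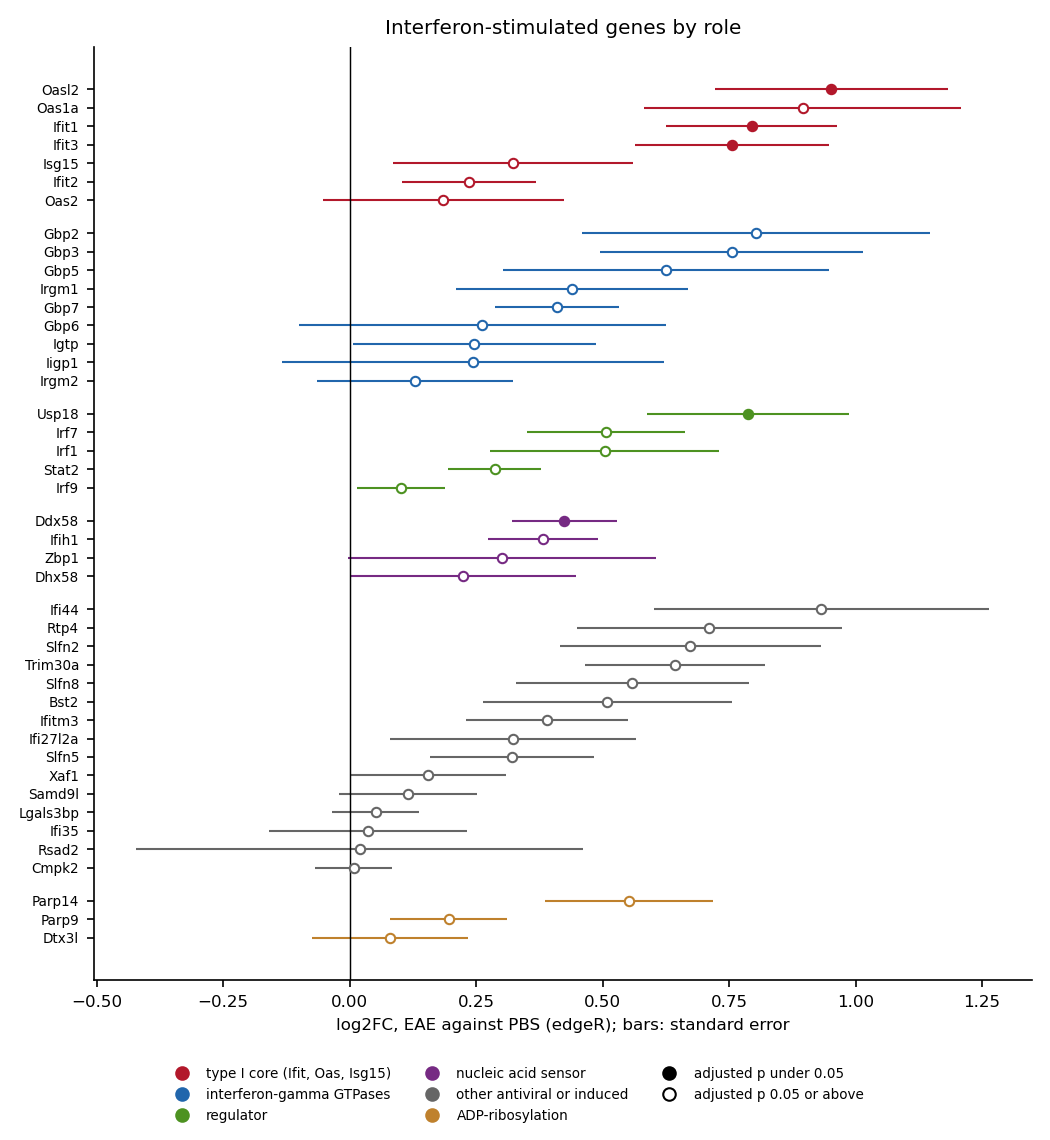
Log2FC of EAE against PBS (horizontal axis, edgeR) for the 43 interferon-stimulated genes, grouped by role, with bars for the standard error. All points lie to the right of 0, and the 5 filled points, Oasl2, Ifit1, Ifit3, Usp18 and Ddx58, have an adjusted p under 0.05.

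The type I core genes held 3 of the 5 called genes and, in edgeR, the highest median among the roles. By limma on log2(FPKM + 1) their median of 0.23 was below that of the GTPases, 0.29. All 7 had a log2FC above 0, with a median of 0.75, and 4 had an unadjusted p under 0.05. Ifit1 and Ifit3 encode proteins that bind viral RNA and associated complexes, and Oasl2 belongs to the family of oligoadenylate synthetases, which sense double-stranded RNA. The FPKM of Ifit1 was 1.58 at the lowest, 2.99 at the median and 3.71 at the highest in EAE mice, and 1.19, 1.65 and 2.16 in PBS-treated mice. EAE 4 lay within the PBS range, and the other EAE libraries lay above every PBS library. The log2FC of Ifit1 was 0.79 (SE 0.17), with an adjusted p of 0.0173 in edgeR. Ifit1 was called in all 16 fits that left out 1 library, with adjusted p-values from 0.00134 to 0.0429. It lies at chr19:34640871-34650009 on GRCm38, where no other annotated gene overlaps it.

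Ifit3 was the most abundant of the type I core genes. Its FPKM was 3.08, 5.80 and 7.16 (lowest, median, highest) in EAE mice, against 1.29, 3.28 and 4.71 in PBS-treated mice. EAE 4 again held the lowest EAE value, the only one that overlapped the PBS range. The log2FC was 0.75 (SE 0.19, adjusted p = 0.0387 in edgeR), and Ifit3 was called in 6 of the 16 fits without 1 library, with the highest adjusted p, 0.0854, without PBS 2. Oasl2 had the largest log2FC of the 43 genes, 0.95 (SE 0.23, adjusted p = 0.0306 in edgeR). Its FPKM was 0.548, 1.51 and 2.04 in EAE mice, against 0.366, 0.758 and 0.972 in PBS-treated mice, with EAE 5 lowest and EAE 4 highest among the EAE libraries. EAE 2 and EAE 5 overlapped the PBS range. Oasl2 was called in 10 of the 16 fits without 1 library, and its adjusted p reached 0.0720 without PBS 2. Without EAE 2, EAE 5 or PBS 8 its log2FC was above 1 (1.07 without EAE 5), and it was then a DEmRNA.

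The other type I core genes did not pass. Oas1a, an oligoadenylate synthetase that activates RNase L, had a log2FC of 0.90 (SE 0.31, adjusted p = 0.133 in edgeR). Its counts were low, 13–42 per EAE library against 8–22 per PBS library. Isg15, a ubiquitin-like modifier, had a log2FC of 0.32 (SE 0.24), Ifit2 one of 0.24 (SE 0.13) and Oas2 one of 0.19 (SE 0.24). Summed over the 7 genes, the FPKM was 11.7–17.8 in EAE mice, against 6.57–11.8 in PBS-treated mice, with EAE 4 the lowest EAE library. The 7 remaining EAE libraries were above all 8 PBS libraries.

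**Figure D2:**
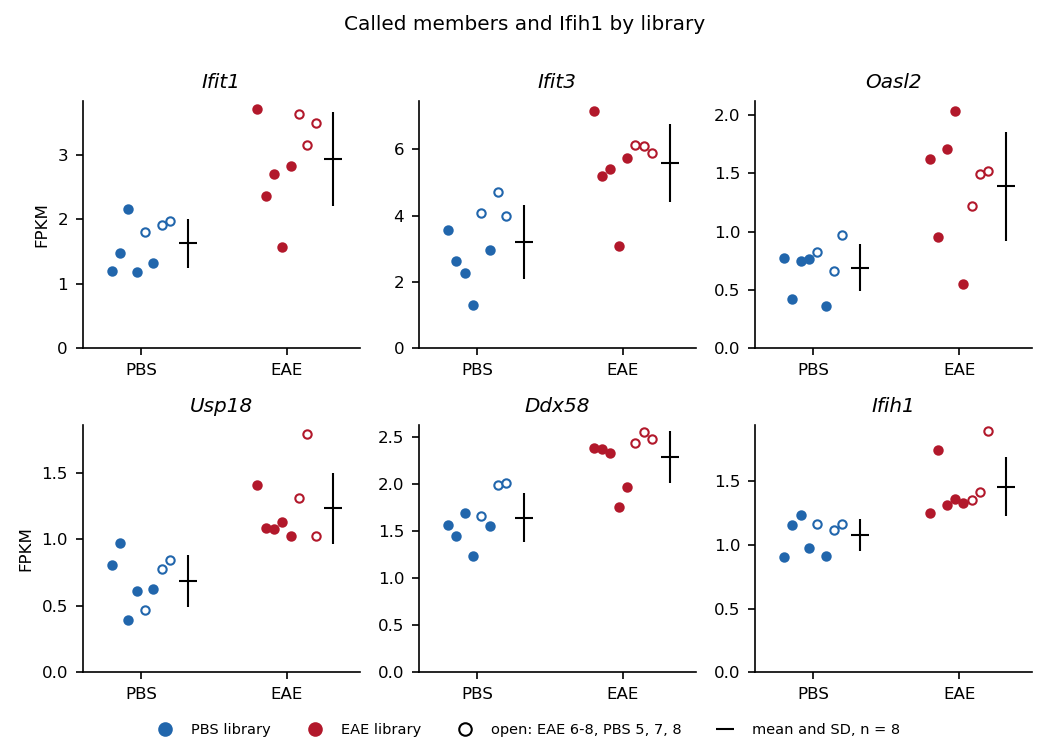
FPKM (vertical axes, from 0) of Ifit1, Ifit3, Oasl2, Usp18, Ddx58 and Ifih1 in each of the 8 PBS and 8 EAE libraries. Points are libraries, open for EAE 6, 7, 8 and PBS 5, 7, 8, and bars give the mean and SD. Usp18 and Ifih1 show no overlap between the groups, and the lowest EAE value lies within the PBS range for the other 4 genes.

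Among the regulators, Usp18 rose in EAE mice, and 3 of the remaining 4 had an unadjusted p under 0.05. Usp18 removes ISG15 from proteins and restrains signaling at the type I receptor. Its FPKM was 1.03, 1.11 and 1.79 (lowest, median, highest) in EAE mice, against 0.394, 0.702 and 0.975 in PBS-treated mice. The groups did not overlap for Usp18, nor for Ifih1, and these were 2 of the 43 genes for which every EAE library exceeded every PBS library, against 0.162% of all tested mRNAs. The log2FC of Usp18 was 0.79 (SE 0.20, adjusted p = 0.0382 in edgeR), and it was called in 6 of the 16 fits without 1 library, with the highest adjusted p, 0.0810, without EAE 7. In the two-sided exact permutation test of the FPKM means, its p was 0.000155, the smallest that 12870 divisions of the libraries can give. Its adjusted p over all tested mRNAs was 0.0591 in that test, which called 0 of the 43 genes and 0% of all tested mRNAs, although 23 of the 43 had an unadjusted p under 0.05, against 18.4% of all tested mRNAs. Usp18 (chr6:121245906-121270917) overlaps an annotated long noncoding RNA on the opposite strand. Since the strand setting of the counting is not given in the sources used here, reads of the 2 genes cannot be told apart.

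Irf7, a transcription factor that amplifies type I interferon production, had a log2FC of 0.51 (SE 0.16, adjusted p = 0.0885 in edgeR). Its FPKM was 1.57, 2.43 and 2.93 in EAE mice, against 1.06, 1.60 and 2.24 in PBS-treated mice, so that the ranges overlapped. Irf1, which responds mainly to interferon-gamma and activates many of its targets, had a log2FC of 0.50 (SE 0.23, adjusted p = 0.250). Stat2 was the most abundant regulator, with an FPKM of 8.14, 11.3 and 12.4 in EAE mice, against 7.08, 8.52 and 10.6 in PBS-treated mice, and its log2FC was 0.29 (SE 0.09, adjusted p = 0.102). Irf9, a DNA-binding partner of STAT2, had a log2FC of 0.10 (SE 0.09). Irf7 and Irf9 overlap Phrf1 and Rnf31, respectively, in the annotation.

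Of the 4 nucleic acid sensors, Ddx58 rose in EAE mice and Ifih1 was just outside the threshold. Ddx58 encodes RIG-I and Ifih1 encodes MDA5, the cytoplasmic sensors of viral RNA that signal through MAVS. The FPKM of Ddx58 was 1.75, 2.38 and 2.55 (lowest, median, highest) in EAE mice, against 1.23, 1.61 and 2.01 in PBS-treated mice, with EAE 4 and EAE 5 inside the PBS range. Its log2FC of 0.42 was about as large as the median of the list, but its SE of 0.10 was small (adjusted p = 0.0336 in edgeR). It was called in 5 of the 16 fits without 1 library, and its adjusted p reached 0.0797 without PBS 2. Ifih1 had an FPKM of 1.25, 1.35 and 1.89 in EAE mice, against 0.906, 1.13 and 1.23 in PBS-treated mice, with no overlap. The log2FC of Ifih1 was 0.38 (SE 0.11), with an adjusted p of 0.0640 in edgeR and 0.0212 in DESeq2. Dhx58, a modulator of both sensors, had a log2FC of 0.22 (SE 0.22), and Zbp1, a sensor of Z-form nucleic acids, had one of 0.30 (SE 0.31).

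The 15 other antiviral or induced genes had a median log2FC of 0.32. None passed in edgeR, 6 had an unadjusted p under 0.05, and DESeq2 called Trim30a. Trim30a, a member of the TRIM family of ubiquitin ligases, had an FPKM of 0.829, 1.21 and 1.62 in EAE mice, against 0.391, 0.718 and 1.06 in PBS-treated mice, and its log2FC was 0.64 (SE 0.18, adjusted p = 0.0580 in edgeR). Ifi44 had the largest log2FC of this group, 0.93 (SE 0.33, adjusted p = 0.139), from only 9–24 counts per EAE library against 5–19 per PBS library. Rtp4 had a log2FC of 0.71 (SE 0.26, adjusted p = 0.155), with an FPKM of 0.786, 1.15 and 1.57 in EAE mice, against 0.300, 0.671 and 1.30 in PBS-treated mice. Slfn2 and Slfn8, of the Schlafen family, had log2FC values of 0.67 (SE 0.26) and 0.56 (SE 0.23).

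Ifitm3, a membrane protein that blocks the entry of viruses, was the most abundant of the 43 genes. Its FPKM was 10.2, 19.7 and 22.7 in EAE mice, against 8.92, 13.2 and 19.4 in PBS-treated mice, and its log2FC was 0.39 (SE 0.16, adjusted p = 0.204 in edgeR). EAE 5 was the low library and stood apart from the other EAE libraries, and without it Ifitm3 was called (adjusted p = 0.0463 in edgeR). Cmpk2, Rsad2, Ifi35 and Lgals3bp had log2FC values of 0.01 (SE 0.08), 0.02 (SE 0.44), 0.04 (SE 0.20) and 0.05 (SE 0.09). The SE of Rsad2 was the largest among the 43 genes. Among the ADP-ribosylation genes, Parp14 had a log2FC of 0.55 (SE 0.17, adjusted p = 0.0793 in edgeR), and Parp9 and Dtx3l, whose products form a complex, had log2FC values of 0.20 (SE 0.12) and 0.08 (SE 0.15). Parp9 and Dtx3l overlap on opposite strands, so their counts are uncertain.

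The interferon-gamma GTPases had log2FC values above 0 in EAE mice without passing the test, and the PBS libraries differed widely among themselves. All 9 had a log2FC above 0, with a median of 0.41. In edgeR 0 of the 9 were called and 3 (Gbp2, Gbp3 and Gbp7) had an unadjusted p under 0.05, and in DESeq2 Gbp7 was called. Gbp2 had the largest log2FC of the class, 0.80 (SE 0.34, adjusted p = 0.225 in edgeR). Its FPKM was 2.61, 6.26 and 8.05 (lowest, median, highest) in EAE mice, against 0.879, 2.52 and 5.68 in PBS-treated mice. PBS 5, 7 and 8 were at 5.29–5.68, and the other PBS libraries at 0.879–2.62. Gbp3 had a log2FC of 0.75 (SE 0.26, adjusted p = 0.127), with an FPKM of 1.39, 2.28 and 2.81 in EAE mice, against 0.435, 1.03 and 2.05 in PBS-treated mice. Gbp7 varied less, with an FPKM of 1.54, 1.85 and 1.97 in EAE mice, against 0.953, 1.27 and 1.91 in PBS-treated mice. The log2FC of Gbp7 was 0.41 (SE 0.12, adjusted p = 0.0771 in edgeR and 0.0282 in DESeq2).

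Irgm1, a GTPase that regulates the others and autophagy, was the most abundant of this class. Its FPKM was 4.40, 9.99 and 11.8 in EAE mice, against 2.57, 6.90 and 9.38 in PBS-treated mice, and its log2FC was 0.44 (SE 0.23, adjusted p = 0.329 in edgeR). Gbp5, which promotes inflammasome assembly, had a log2FC of 0.63 (SE 0.32, adjusted p = 0.323). Gbp6, Igtp, Iigp1 and Irgm2 had log2FC values of 0.26 (SE 0.36), 0.25 (SE 0.24), 0.24 (SE 0.38) and 0.13 (SE 0.19). Igtp and Irgm2 overlap on the same strand, so the counting could split or drop their shared reads. The same holds for Gbp6, which overlaps an annotated protein-coding gene on its strand, and for Gbp7, which overlaps a pseudogene on its strand. The Gbp genes also have close relatives between which reads could be split. Summed over the 9 genes, the FPKM was 16.7–33.8 in EAE mice, against 8.16–29.5 in PBS-treated mice. EAE 4 was the lowest EAE library, with 5 of the 9 genes at their EAE minimum, and PBS 4 was the lowest PBS library.

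**Figure D3:**
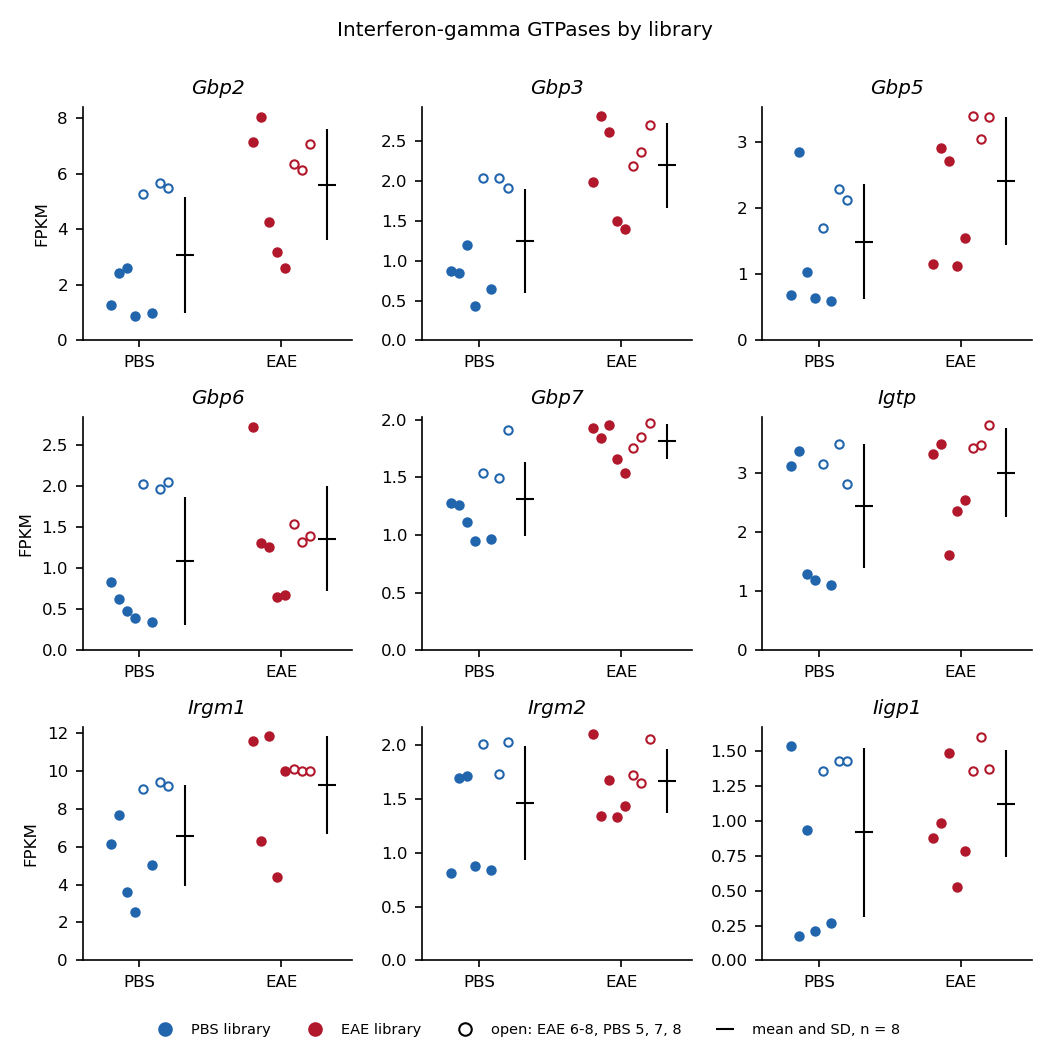
FPKM (vertical axes, from 0) of the 9 interferon-gamma GTPases in each PBS and EAE library, with the mean and SD of the 8 libraries beside the points. Open points are EAE 6, 7, 8 and PBS 5, 7, 8. PBS 5, 7 and 8 lie above all other PBS libraries for Gbp2, Gbp3, Gbp6, Gbp7, Irgm1 and Irgm2.

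The 2 classes differed in their spread within groups, which is given as a description. For the GTPases, the highest PBS value of a gene was 4.70 times the lowest at the median, against 2.49 times for the type I core genes. Among EAE libraries the ratios were 2.69 and 2.35. PBS 5, 7 and 8 were above all 5 other PBS libraries for 6 of the 9 GTPases (Gbp2, Gbp3, Gbp6, Gbp7, Irgm1 and Irgm2), against 6.90% of all tested mRNAs. The same held for Ifit2 and Ifit3 of the 7 type I core genes and for 11 of the 43 genes (25.6%). Neutrophil markers were 54.2–55.0 in summed FPKM in PBS 5, 7 and 8 and 19.5–57.7 in the other PBS libraries, and microglial markers were 238–258 and 206–343. Endothelial markers were 46.95–56.69 and 30.78–45.3, without overlap, whereas the ranges of the other marker sets overlapped. The part of cell content in this split was not tested. Over all 43 genes, PBS 6 held the lowest PBS value for 18 and PBS 4 for 13, while EAE 4 held the lowest EAE value for 13 and EAE 5 for 12.

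**Figure D4:**
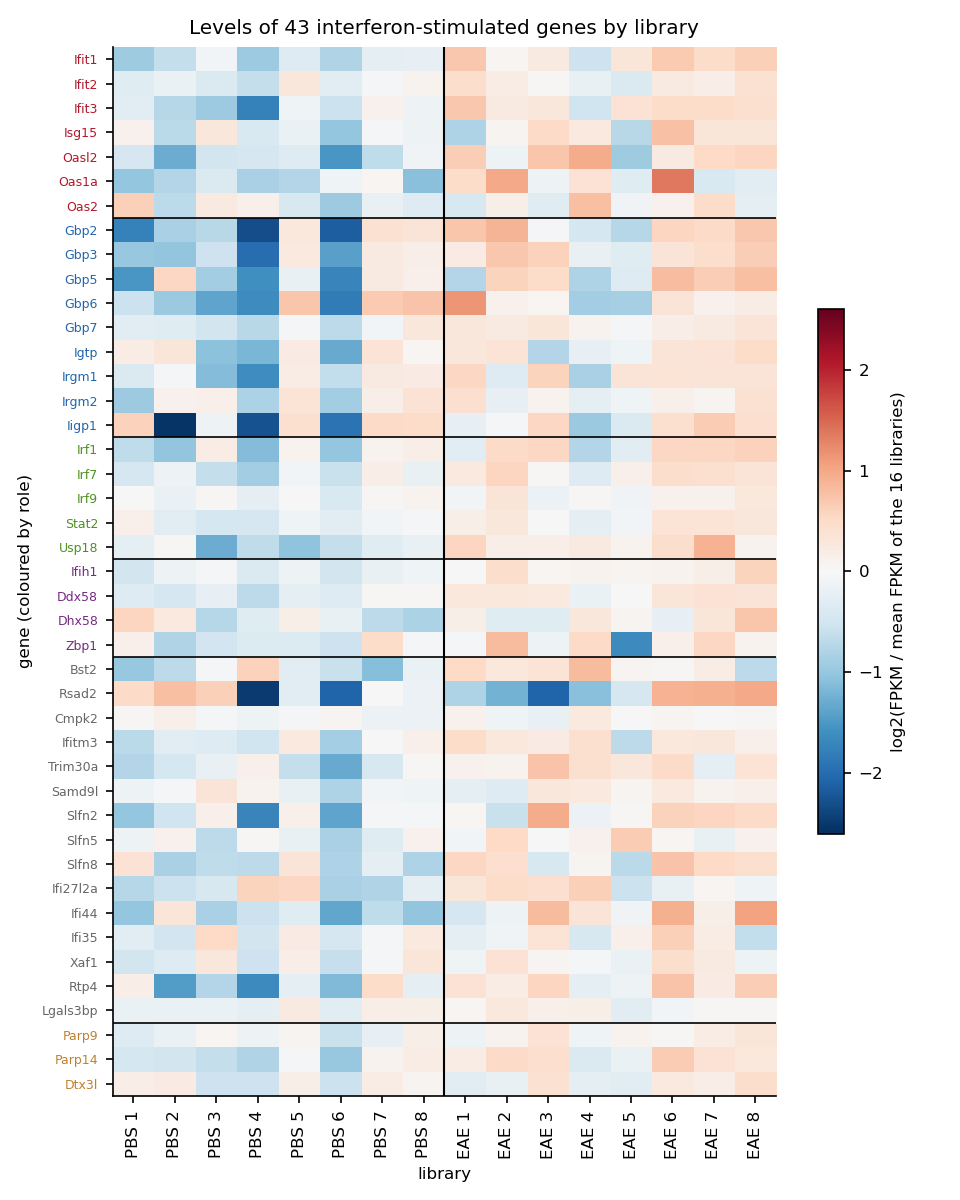
Level of each of the 43 genes (rows, coloured by role) in each library (columns, PBS left of the line), as log2 of the FPKM over the mean FPKM of the 16 libraries. PBS 4 and PBS 6 are blue over most of the GTPase rows, PBS 5, 7 and 8 are not, and Rsad2 is red in EAE 6, 7 and 8 alone among the EAE libraries.

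The comparison was repeated within the 2 sets of libraries, since the groups are made up of both. Within EAE 6, 7, 8 and PBS 5, 7, 8, 38 of the 43 genes had a log2FC above 0 (50.5% of all tested mRNAs), and the median was 0.34. There 13 genes were higher at an adjusted p under 0.05 (11.0% of all tested mRNAs) and 2 were lower (13.1% of all tested mRNAs). These 6 libraries were set apart for being alike, so that their small spread comes with the choice, and 24.1% of all tested mRNAs were called there in either direction. The p-values of this set are therefore read only beside those shares. The higher genes were Ifit1, Ifit3, Oasl2, Gbp5, Irf1, Stat2, Usp18, Ifih1, Ddx58, Rsad2, Slfn2, Slfn8 and Parp14, and the lower ones were Gbp6 and Lgals3bp. Within the other 5 libraries of each group, 40 of 43 genes had a log2FC above 0 (51.2% of all tested mRNAs), with a median of 0.52. None of the 43 was called there in edgeR (0.0458% of all tested mRNAs), and 20 had an unadjusted p under 0.05, against 10.8% of all tested mRNAs. Other tools were not run within the sets. With a term for the sets in the edgeR model of all 16 libraries, 42 of 43 genes had a log2FC above 0 and 13 were called higher, against 1.35% of all tested mRNAs. These were the 5 genes called without the term and Gbp2, Gbp3, Gbp7, Irf7, Stat2, Ifih1, Trim30a and Parp14. The term rests on sets chosen from these same data, so its calls too are read only beside that share.

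The 2 classes were followed through the 2 sets of libraries. The median log2FC of the type I core genes was 0.56 within EAE 6, 7, 8 and PBS 5, 7, 8 and 0.77 within the other libraries, and that of the GTPases was 0.15 and 0.61. Ifit1 had a log2FC of 0.82 (SE 0.13) in the first set and 0.77 (SE 0.23) in the second. Gbp2 had a log2FC of 0.22 (SE 0.09) in the first and 1.54 (SE 0.35) in the second, and Gbp3 had 0.24 (SE 0.13) and 1.29 (SE 0.26). Gbp6 was lower in EAE mice in the first set, by a log2FC of −0.54 (SE 0.12, adjusted p = 0.00155 in edgeR), and had a log2FC of 1.23 (SE 0.35, adjusted p = 0.187) in the second. In the first set, 24.1% of all tested mRNAs were called. The FPKM of Gbp6 was 1.31–1.54 in EAE 6, 7 and 8 and 1.96–2.04 in PBS 5, 7 and 8. In the other libraries it was 0.655–2.72 in EAE mice, against 0.346–0.835 in PBS-treated mice.

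Rsad2, which encodes viperin, went the other way. Its FPKM was 3.19–3.35 in EAE 6, 7 and 8 and 1.40–1.69 in PBS 5, 7 and 8. Its log2FC there was 1.05 (SE 0.12, adjusted p = 5.1e-07 in edgeR), in a set where 24.1% of all tested mRNAs were called. In the other libraries its FPKM was 0.398–1.25 in EAE mice, against 0.303–2.90 in PBS-treated mice, and the log2FC was −1.13 (SE 0.51, adjusted p = 0.433). The difference between the sets was tested as an interaction in the edgeR model, chosen after the data were seen. At an adjusted p under 0.05, it called 0 of the 43 genes and 0.0615% of all tested mRNAs. Without adjustment, 7 of the 43 had a p under 0.05, against 8.03% of all tested mRNAs, namely Gbp6, Lgals3bp, Rsad2, Gbp3, Gbp2, Gbp7 and Ifitm3, with adjusted p-values from 0.239 to 0.612. The type I core genes held 0 of these 7 and the GTPases 4. No test compared the 2 classes with each other.

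**Figure D5:**
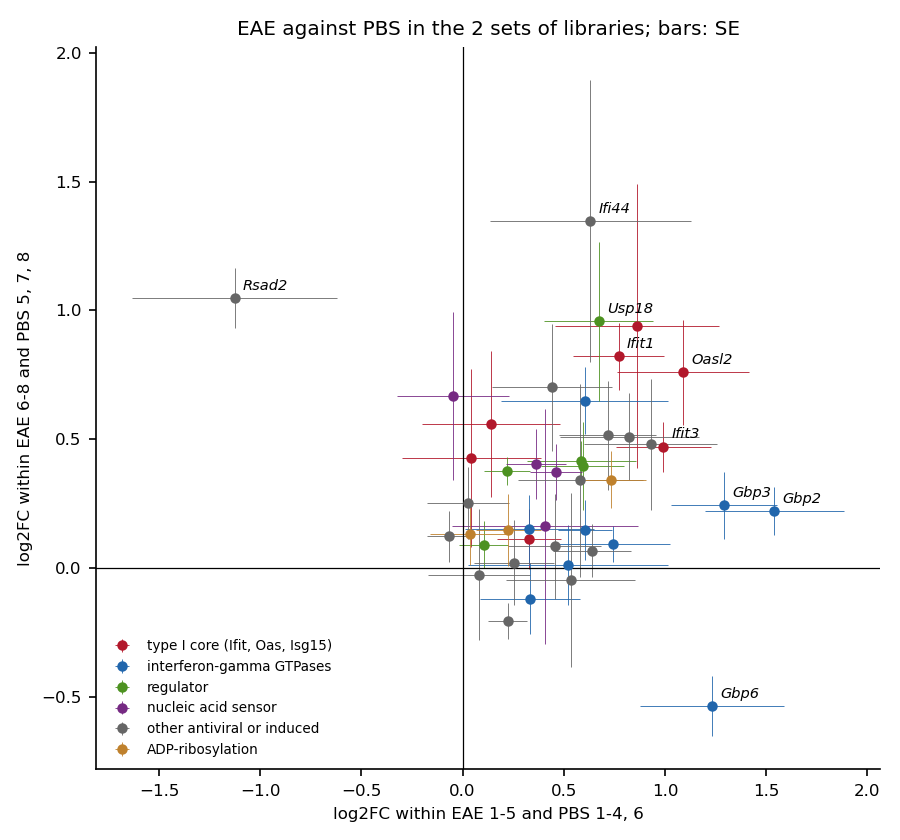
Log2FC of EAE against PBS within EAE 1–5 and PBS 1–4 and 6 (horizontal axis) and within EAE 6–8 and PBS 5, 7 and 8 (vertical axis), with bars for the standard error. Gbp2 (1.54 and 0.22), Gbp3 and Gbp6 lie far to the right of their height, Rsad2 (−1.13 and 1.05) lies alone at the upper left, and Ifit1 (0.77 and 0.82) lies near equal values.

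Of the genes that make, sense or relay interferon, 1 passed the test. Of 67 listed genes of the pathway, 65 had symbols with a row in the tables, the remaining 2 being newer names of genes that are present, and 49 had enough counts for the test. Of these, 32 had a log2FC above 0 and 17 below 0, and 12 had an unadjusted p under 0.05, 10 of them higher in EAE mice. Over all tested mRNAs, 52.7% were above 0, 17.4% had an unadjusted p under 0.05 and 2.42% were called, so the 1 called gene of 49 was near the background. Jak1, the kinase shared by all interferon receptors, was the 1 called gene, and it was lower in EAE mice. Its FPKM was 29.7, 30.8 and 32.7 (lowest, median, highest) in EAE mice, against 30.7, 33.4 and 35.0 in PBS-treated mice, and its log2FC was −0.15 (SE 0.04) with an adjusted p of 0.0481 in edgeR. The call was present in 4 of the 16 fits without 1 library, with the highest adjusted p, 0.119, without EAE 2. Jak2 had a log2FC of −0.01 (SE 0.04) and Tyk2 one of 0.13 (SE 0.06).

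The type I receptor genes Ifnar1 and Ifnar2 had log2FC values of 0.01 (SE 0.05) and 0.12 (SE 0.10). The interferon-gamma receptor genes Ifngr1 and Ifngr2 had values of −0.12 (SE 0.11) and −0.04 (SE 0.09). In FPKM, Ifnar1 was 10.4 ± 0.653 (SD, n = 8) in the EAE group, against 9.91 ± 0.647 in the PBS group, and Ifngr1 was 9.85 ± 2.30 and 10.3 ± 0.644. Ifnlr1 and Il10rb, the subunits of the interferon lambda receptor, had log2FC values of 0.19 (SE 0.36) and 0.01 (SE 0.14). In edgeR, 0 of the 6 receptor genes had an adjusted p or an unadjusted p under 0.05.

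The ligands themselves were hardly seen. Of 21 interferon genes, 16 had fewer than 16 counts over all libraries and were not tested, and none of the 5 tested had an unadjusted p under 0.05. Ifng, the gene of interferon-gamma, had 13 counts in all, at most 2 in an EAE library and at most 5 in a PBS library. Ifnb1, the gene of interferon beta, had 7 counts, all of them in EAE 5 and 0 in the other libraries. Ifnk had the most, with 92 counts in all and a log2FC of 0.37 (SE 0.50). Ifnl2 and Ifnl3 had 0 counts. At this depth, a difference in ligand mRNA was not detectable for the untested genes.

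Of 6 targets of interferon-gamma outside the GTPases, 0 were called in edgeR or in DESeq2, which gave Cxcl9 no adjusted p, and Cxcl10, Nlrc5 and Nos2 had an unadjusted p under 0.05 in edgeR. With the term for library sets in the edgeR model, 2 of the 6 were called higher, against 1.35% of all tested mRNAs. With the replicate block, 2 were called higher, against 0.839%. Cxcl10, a chemokine that attracts T cells, had an FPKM of 1.85, 8.02 and 13.9 in EAE mice, against 0.0948, 1.18 and 4.17 in PBS-treated mice. Nlrc5, the transactivator of MHC class I genes, had a log2FC of 0.86 (SE 0.25, adjusted p = 0.0667 in edgeR), with an FPKM of 0.429, 1.21 and 1.47 in EAE mice, against 0.300, 0.523 and 0.944 in PBS-treated mice. Nos2, the inducible nitric oxide synthase, had a log2FC of 0.95 (SE 0.44, adjusted p = 0.263). Ciita, the transactivator of MHC class II genes, had one of 0.01 (SE 0.15) and Ido1 one of −0.29 (SE 0.23). Among the genes that sense nucleic acids or relay the signal of such sensors, Mb21d1 (cGAS), Tbk1, Ikbke and Eif2ak2 had an unadjusted p under 0.05. Their log2FC values were 0.65 (SE 0.23), 0.13 (SE 0.06), 0.34 (SE 0.16) and 0.23 (SE 0.09). The phosphatase genes Ptpn6 and Ptpn11 also had an unadjusted p under 0.05, with log2FC values of 0.37 (SE 0.18) and −0.13 (SE 0.05).

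Close relatives of the listed genes were examined where counting could split reads between copies. Of 28 relatives tested, 20 had a log2FC above 0, 7 had an unadjusted p under 0.05, all higher, and Slfn4 was called. The shares over all tested mRNAs were 52.7% above 0, 7.92% higher at an unadjusted p under 0.05 and 0.660% called higher. Slfn4, a Schlafen gene related to Slfn2 and Slfn8, had an FPKM of 0.132, 0.606 and 0.875 in EAE mice, against 0.108, 0.170 and 0.293 in PBS-treated mice. It rose by a log2FC of 1.55 (SE 0.33, adjusted p = 0.0175 in edgeR), which made it a DEmRNA, and it was called in all 16 fits without 1 library. Ifit3b, a near copy of Ifit3, had a log2FC of 0.55 (SE 0.17, adjusted p = 0.0929), Slfn9 one of 0.86 (SE 0.24, adjusted p = 0.0563) and Trim30d one of 0.39 (SE 0.15, adjusted p = 0.162). In the annotation, 19 of the 45 listed genes overlap another gene, while Ifit1, Ifit3, Oasl2 and Ddx58 overlap none.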

How the data were processed

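Total RNA libraries (TruSeq Stranded, ribosomal RNA removed) of brain cells sorted as microglia, according to the methods, were compared between 8 EAE and 8 PBS-treated mice. The authors aligned reads to GRCm38 with HISAT2 2.1.0, counted them with HTSeq 0.11.2 and deposited raw counts and FPKM per mRNA. The submitters' processing notes also name DESeq2 1.22.2. The annotation release, strand setting and treatment of ambiguous reads are not given in the sources used here. In the treatment label, the last MOG residue goes from 55 in EAE 1 to 62 in EAE 8, whereas the protocol gives 35–55. The methods give 8 mice per group, and p-values measure the spread between these libraries. The fit with group as its only term treats all libraries as independent. Some were more alike than others of their group, so the effective number per group may be below 8.

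Counts of mRNAs with at least 16 counts in all (17885) were tested with edgeR 4.0.16 (R 4.3.3) by TMM normalization and the quasi-likelihood F-test, with Benjamini-Hochberg adjustment over all of them. A gene was called at an adjusted p under 0.05, and was a DEmRNA with a |log2FC| over 1 as well. In 12 simulations of this comparison (17767–17792 genes tested), 95–100% of the genes changed by a log2FC of 1 and 98–100% of those changed by 1.5 were recovered, and 2.93–6.67% of the calls were on unchanged genes. The changed genes were drawn from well-counted mRNAs, and the simulated libraries held no sets of alike libraries. These shares therefore do not cover changes under a log2FC of 1 or genes with low counts, such as Oas1a and Ifi44. Alternatives were DESeq2 1.42.0, limma 3.58.1 on log2(FPKM + 1) and log2(FPKM + 0.1), an exact permutation test of FPKM over 12870 divisions, RLE normalization, other filters, robust estimation, a replicate block, the library sets and leaving out each library.

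The genes and lists were chosen with earlier results of these data known. Any of the 45 genes could be named. Values were given for called genes, the 10 smallest p-values, and in each role the 2 largest |log2FC| and the highest FPKM. Of the pathway, genes with an unadjusted p under 0.05, receptors, the Janus kinases and ligands were named, and 1 gene of the pathway is not reported here. Positions of genes are those of GENCODE M21, and promoter sequences those of RefSeq (GRCm38.p6).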

Additional observations from a re-analysis of the deposited data

Results flagged for a closer look

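Of 86 sets of 8 libraries (43 genes in 2 groups), 2 held a library that stood apart by Dixon's criterion, and chance flags about 1 in 20 such sets. The FPKM of Gbp6 in EAE 1 was 2.72, and the nearest EAE library was at 1.54, a gap of 0.573 of the whole range. The FPKM of Ifitm3 in EAE 5 was 10.2, and the nearest EAE library was at 17.9, a gap of 0.620 of the range. No test was made of what sets these libraries apart.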

How the results depend on the processing

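The direction of the 43 genes held in 1177 of 1204 combinations of gene and setting, and 35 genes were never reversed. Within EAE 6, 7, 8 and PBS 5, 7, 8, reversed log2FC values were −0.54 for Gbp6, −0.12 for Irgm2, −0.048 for Ifi27l2a, −0.026 for Ifi35 and −0.21 for Lgals3bp. Within the other 5 libraries of each group they were −0.047 for Dhx58, −1.13 for Rsad2 and −0.065 for Cmpk2. Rsad2 was also reversed by the term for library sets (−0.27) and by the replicate block (−0.024). When 1 library was left out, values ranged from −0.19 to 0.20 for Rsad2, from −0.024 to 0.039 for Cmpk2 and from −0.068 to 0.14 for Ifi35. The cause was not tested.

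The count of 5 called genes was 10 with DESeq2, 13 with the term for library sets, 15 and 0 within the 2 sets of libraries, 3 by limma on log2(FPKM + 0.1) and 0 in the exact permutation test. The smallest possible p of the permutation test did not pass after adjustment, and that test called 0 of the 17885 tested mRNAs. Leaving out 1 library gave 1 to 11 called genes, 0 to 1 DEmRNAs, 40 to 43 genes above 0, a median log2FC of 0.31 to 0.45 (type I core 0.64 to 0.85, GTPases 0.32 to 0.50) and 0 to 4 called pathway genes (4 without EAE 4 or EAE 5). The term for library sets gave 1 DEmRNA, Gbp2, and EAE 6, 7, 8 against PBS 5, 7, 8 gave 1, Rsad2. The median of the type I core genes was 0.23 by limma on log2(FPKM + 1), a scale that compresses low values, and lay below that of the GTPases, 0.29. The 1 called pathway gene became 0 with RLE normalization, no filter, filterByExpr, robust estimation, both limma fits, the permutation test and the 5 other libraries, 3 with the term for library sets and 13 of 45 within EAE 6, 7, 8 and PBS 5, 7, 8, where 24.1% of all tested mRNAs were called.

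With the replicate number as a block, 10 of the 43 genes (0.839% of all tested mRNAs) and 2 pathway genes were called. Same-numbered libraries correlated at −0.121 to 0.382, over 0.1 in 3 of 8 pairs, and 5 of 16 libraries correlated best with their own number, so the numbers were not taken to pair the mice.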
